A study of Homo sapiens with 16 samples.

Results

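To describe which functional classes of mRNA are enriched on, or depleted from, the polysomes of leukemia cells without a targeted knockout, polysomal RNA was compared with total RNA of control cells. The comparison comprised the 8 libraries with the control guide out of 16 in the series, 4 of polysomal RNA and 4 of total RNA, chosen by their labels. The cells were MOLM13, a human line established from acute myeloid leukemia (AML) that carries a KMT2A fusion. All cells stably expressed Cas9 under selection with Blasticidin. The control cells received the non-targeting guide sgLUC in a vector with puromycin resistance and were lysed at day 14, and the other 8 libraries came from cells with a YBX1-targeting guide (sgYBX1) treated in the same way. Cycloheximide, which arrests ribosomes on mRNA, was added before lysis, lysates were cleared by centrifugation and spun through sucrose gradients, and the heavier fractions were pooled as polysomal RNA. mRNA of both kinds was selected by its poly(A) tail. The methods describe 4 replicate cultures lysed for fractionation, and p-values measure the spread between the libraries made from them. In bulk RNA a change in a few cells and a smaller change in all cells cannot be told apart.

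An mRNA in active translation carries several ribosomes and sediments deep into a sucrose gradient, whereas an mRNA that is stored, bound by few ribosomes or still in the nucleus sediments higher up or remains in the pellet of the lysate. The level of an mRNA on polysomes relative to its level in total RNA thus describes its presence in the heavier fractions relative to other mRNAs. It does not count the ribosomes on an mRNA, and stored or nuclear mRNA enters it too. Whether selection by the poly(A) tail acted alike on both kinds of RNA was not tested. Short coding sequences have room for few ribosomes. mRNAs of ribosomal proteins typically begin with a run of pyrimidines (a TOP motif) that places their translation under control of the growth kinase mTORC1.

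The 8 libraries held 38326270 to 66164414 counts. Replicates correlated at 0.994 to 0.997 in total RNA and at 0.969 to 0.978 in polysomal RNA, against 0.823 to 0.856 between the fractions (log2 scale). The 10 most abundant genes took 5.56 to 5.67% of the counts of total and 9.23 to 10.8% of those of polysomal libraries, and the biological coefficient of variation was 0.0555 in total and 0.213 in polysomal RNA. All 12 myeloid markers reached 1 CPM (counts scaled to the library total) in total RNA, whereas none of 5 erythroid and megakaryocyte and none of 8 epithelial and stromal markers did. The summed level of the myeloid markers was 5438 to 5584 CPM in total and 1359 to 1590 CPM in polysomal RNA. The lysozyme gene LYZ alone had a mean of 3090 CPM in total RNA, so this sum largely follows 1 gene. Of 5 lymphoid markers 1 reached 1 CPM, and their sum was 2.50 to 3.14 CPM in total and 12.1 to 15.1 CPM in polysomal RNA. In the test of all genes, 4 of 6 lymphoid and erythroid markers that passed the filter were higher on polysomes (median log2 fold change 1.81), as were 2 of 3 epithelial and stromal markers (2.26), and the part of other cells in the results was not tested. Levels of single genes are given below as CPM additionally scaled by TMM factors, which center the comparison on the bulk of genes. These factors were 1.33 to 1.38 for total and 0.687 to 0.779 for polysomal libraries. Scaling to total counts instead shifted the median of all genes by −0.87 (log2), from −0.08 to −0.95. All directions are therefore relative to other mRNAs, and log2 fold changes between 0 and about 0.87 turn negative under total counts.

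Most mRNAs differed between the fractions. Of 12046 genes tested, 81.2% passed the test, and 4691 (38.9%) were higher and 5093 (42.3%) lower on polysomes at an adjusted p under 0.05 (edgeR quasi-likelihood test, Benjamini-Hochberg). By more than 2-fold, 3162 (26.2%) were higher and 3389 (28.1%) lower. Under total-count scaling the split was 2689 higher and 7413 lower. The quartiles of all log2 fold changes were −1.18 and 1.10. The polysomal and total libraries did not overlap for 78.2% of genes.

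The 10 most enriched genes had coding sequences of 279 to 1374 bases. LAMTOR4, a subunit of the Ragulator complex that anchors mTORC1 on lysosomes (chromosome 7, 100148918 to 100154203, GRCh38), held 43.0, 43.2, 42.0 and 47.4 CPM in the total libraries and 1393, 1636, 1721 and 1338 CPM in the polysomal libraries. Every polysomal library lay far above every total library (log2 fold change 5.12 ± 0.11 SE, adjusted p = 4.97e-12, edgeR). HIST1H4C, a replication-dependent histone H4 gene, held 5.54, 4.07, 5.74 and 4.55 CPM in total and 449, 386, 145 and 224 CPM in polysomal RNA (5.91 ± 0.34). Its groups were also far apart, but the polysomal libraries varied. ISG15, a ubiquitin-like protein induced by interferon, rose from 6.40 ± 0.0618 to 165 ± 17.3 CPM (SD, n = 4; 4.68 ± 0.10). UQCC3, an assembly factor of respiratory complex III, rose by 4.95 ± 0.10, and its locus overlaps LBHD1. KNOP1, a lysine-rich nucleolar protein with the longest coding sequence among the 10 most enriched genes (1374 bases), rose from 28.4 ± 0.736 to 804 ± 143 CPM (4.82 ± 0.13). The other 5 were C4orf48 (5.38), SCAND1 (5.09), CCDC85B (4.88), ZNF593 (4.69) and TMEM160 (4.67), with coding sequences of 384 to 606 bases.

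The 10 most depleted genes had coding sequences of 588 to 13173 bases. TMEM30A, a subunit of the phospholipid flippases (chromosome 6, 75252924 to 75284792), held 217, 203, 217 and 219 CPM in total and 5.45, 3.49, 4.20 and 4.10 CPM in polysomal RNA. The groups were far apart (−5.64 ± 0.13, adjusted p = 4.97e-12, edgeR). UTP4, a component of the processome that matures the small ribosomal subunit, fell from 39.3 ± 1.75 to 1.07 ± 0.652 CPM (−5.20 ± 0.27). PRMT5, an arginine methyltransferase, fell from 104 ± 0.828 to 5.49 ± 0.671 CPM (−4.24 ± 0.11). SAMHD1, an enzyme that degrades deoxynucleotides and restricts viruses, fell from 59.0 ± 1.99 to 2.23 ± 0.428 CPM (−4.73 ± 0.13). The adaptor protein GAB2 (−4.26) and the basement membrane protein HSPG2 (−4.22) were also among the 10 lowest, together with TBC1D14 (−5.07), ADAM9 (−4.98), TEX261 (−4.68) and PANK3 (−4.43). The loci of SAMHD1 (TLDC2), PRMT5 (PRMT5-AS1), GAB2 (USP35), HSPG2 (LDLRAD2), ADAM9 (TM2D2) and SCAND1 (CNBD2) overlap the gene in brackets. Further below, so do among others those of EIF5B (REV1), HSP90AA1 (WDR20), TYMS (ENOSF1), RPS28 (KANK3), TPI1 (SPSB2) and MAT2A (GGCX). The same holds for RB1 (LPAR6), LIPA (IFIT2 and IFIT3), PDIA6 (ATP6V1C2), TIMM13 (TMPRSS9), ANLN (MATCAP2), TLR2 (RNF175) and S100A4 (S100A5). Reads from an overlap cannot be assigned to one of the genes.

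**Figure D1:**
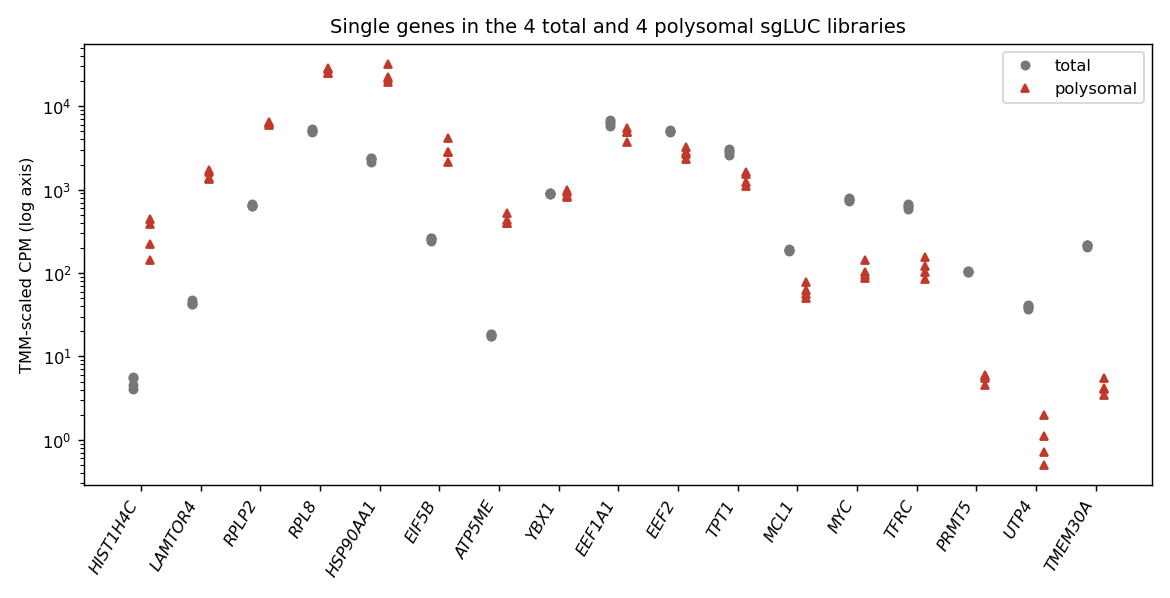
TMM-scaled CPM (log axis) of 17 genes in each of the 4 total and 4 polysomal sgLUC libraries, one point per library. HIST1H4C, LAMTOR4, RPLP2, RPL8, HSP90AA1, EIF5B and ATP5ME lie higher on polysomes, YBX1 overlaps between the fractions (823 to 989 CPM in polysomal and 876 to 923 CPM in total RNA), and EEF1A1 to TMEM30A lie lower.

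mRNAs of ribosomal proteins were enriched on polysomes. Of 47 tested genes of the large subunit, 41 were higher and 5 lower (median log2 fold change 1.42), and of 31 of the small subunit, 25 were higher and 2 lower (median 1.42), against 38.9% higher and 42.3% lower over all genes. Under total-count scaling 26 and 17 were higher and 11 and 8 lower. Together these genes took 8.10, 7.97, 7.78 and 7.98% of the counts of the total libraries and 13.8, 12.7, 11.4 and 13.3% of those of the polysomal libraries. The shares did not overlap, as for nearly all lists (exact permutation test, two-sided, p = 0.0286, the smallest that 4 against 4 libraries allow). This list was chosen with earlier results of these data known, so the p-value is no separate support.

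RPLP2, an acidic protein of the ribosomal stalk, held 663, 633, 629 and 662 CPM in total and 6411, 6265, 6220 and 5910 CPM in polysomal RNA (3.26 ± 0.07). RPS28 had the highest value of the small subunit (3.68 ± 0.15). RPL8, one of the 5 genes with the most counts in both fractions, rose from 5131 ± 177 to 26607 ± 1895 CPM (2.37 ± 0.08). The family was not uniform. RPS15 rose by 2.15 ± 0.08, whereas RPS15A fell from 449 ± 19.0 to 359 ± 62.0 CPM (−0.32 ± 0.11, adjusted p = 0.018, edgeR). RPS29 (−0.66 ± 0.12) and RPL7 (−0.90 ± 0.12) were the lowest of their subunits. Ribosomal protein genes have many processed pseudogenes, so their counts are uncertain where reads match several copies.

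Of 16 other mRNAs known to begin with a TOP motif, 9 were higher and 6 lower (median 0.59, −0.28 under total counts), against 38.9% higher and 42.3% lower over all genes. Their summed share of counts was lower on polysomes, at 2.01 to 2.24% of polysomal against 3.44 to 3.67% of total counts. The abundant elongation factors EEF1A1 (6397 ± 428 to 4736 ± 735 CPM, −0.43 ± 0.11) and EEF2 (5086 ± 112 to 2757 ± 370 CPM, −0.88 ± 0.09) fell, as did TPT1, a growth-associated protein (−1.06 ± 0.12). NAP1L1, a chaperone of histones, rose (2.03 ± 0.08). PABPC1, the cytoplasmic poly(A)-binding protein, rose by 0.40 ± 0.12 but stood at −0.47 under total counts.

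The start sites of RPLP2, RPS28 and TPT1 are shown because each holds a pyrimidine run while their mRNAs lay far apart. RPS29 is shown as a ribosomal protein gene without one at its annotated start. Capitals mark the pyrimidine run that opens with C within 3 bases of the annotated start site (RefSeq, GRCh38.p14, transcript strand, 5′ to 3′).
RPLP2: gcgcCTTCCTTTTCCTCCCTgtcgc
RPS28: gcacgtgaCTCCTCTCCgccagacc
TPT1: agtcggCCTTTTCCgcccgctcccc
RPS29: gcgcagCTggcagcggtggttgttt
They lie at chr11:809960-809984 (plus strand), chr19:8321489-8321513 (plus), chr13:45341166-45341190 (minus) and chr14:49598693-49598717 (minus). A run of at least 5 pyrimidines, searched on the transcript strand, was present in 10.9% of 9879 genes with a start-site sequence. Among ribosomal protein genes the median was 1.5 for the 23 with such a run and 1.42 for the 39 without. Outside the ribosome it was −0.08 for 1054 genes with the run and −0.11 for 8763 without. Since mRNAs of ribosomal proteins typically begin with such a run, the search at 1 annotated start may have missed it in many of the 39. These medians therefore cannot show whether the run matters for the level on polysomes.

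Translation initiation factors were split. Of 34 tested, 20 were higher and 12 lower (median 0.86, −0.01 under total counts), against 38.9% higher and 42.3% lower over all genes. EIF5B, which joins the ribosomal subunits, held 261, 241, 263 and 256 CPM in total and 2172, 2826, 4132 and 2864 CPM in polysomal RNA (3.56 ± 0.17). EIF3C, a subunit of the eIF3 complex, had the lowest value (−2.53 ± 0.16), and its reads are uncertain because a near-identical copy, EIF3CL, exists. EIF4B, a cofactor of the mRNA helicase, fell from 723 ± 33.1 to 492 ± 53.5 CPM (−0.56 ± 0.09). EIF3D rose from 309 ± 4.88 to 391 ± 15.7 CPM (0.34 ± 0.07) and stood at −0.53 under total counts.

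EIF3L did not pass the test (358 ± 13.2 against 328 ± 29.3 CPM, −0.12 ± 0.08, adjusted p = 0.187, edgeR). Without polysomal replicate 1 or 4 it was called lower (−0.20 and −0.22). YBX1, a cold-shock protein that binds mRNA, held 910, 889, 876 and 923 CPM in total and 989, 932, 823 and 843 CPM in polysomal RNA. Its groups overlapped (−0.00 ± 0.08, adjusted p = 0.965, edgeR), and under total counts it was called lower, at −0.87. IGF2BP2, another mRNA-binding protein, rose by 0.44 ± 0.09 and stood at −0.44 under total counts. Stress-granule and translation-control proteins were lower in 19 of 30 and higher in 5 (median −0.38), against 42.3% lower and 38.9% higher over all genes. They ranged from PABPC4, a poly(A)-binding protein (2.09 ± 0.20), to PUM2, a translational repressor (−2.33 ± 0.08).

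**Figure D2:**
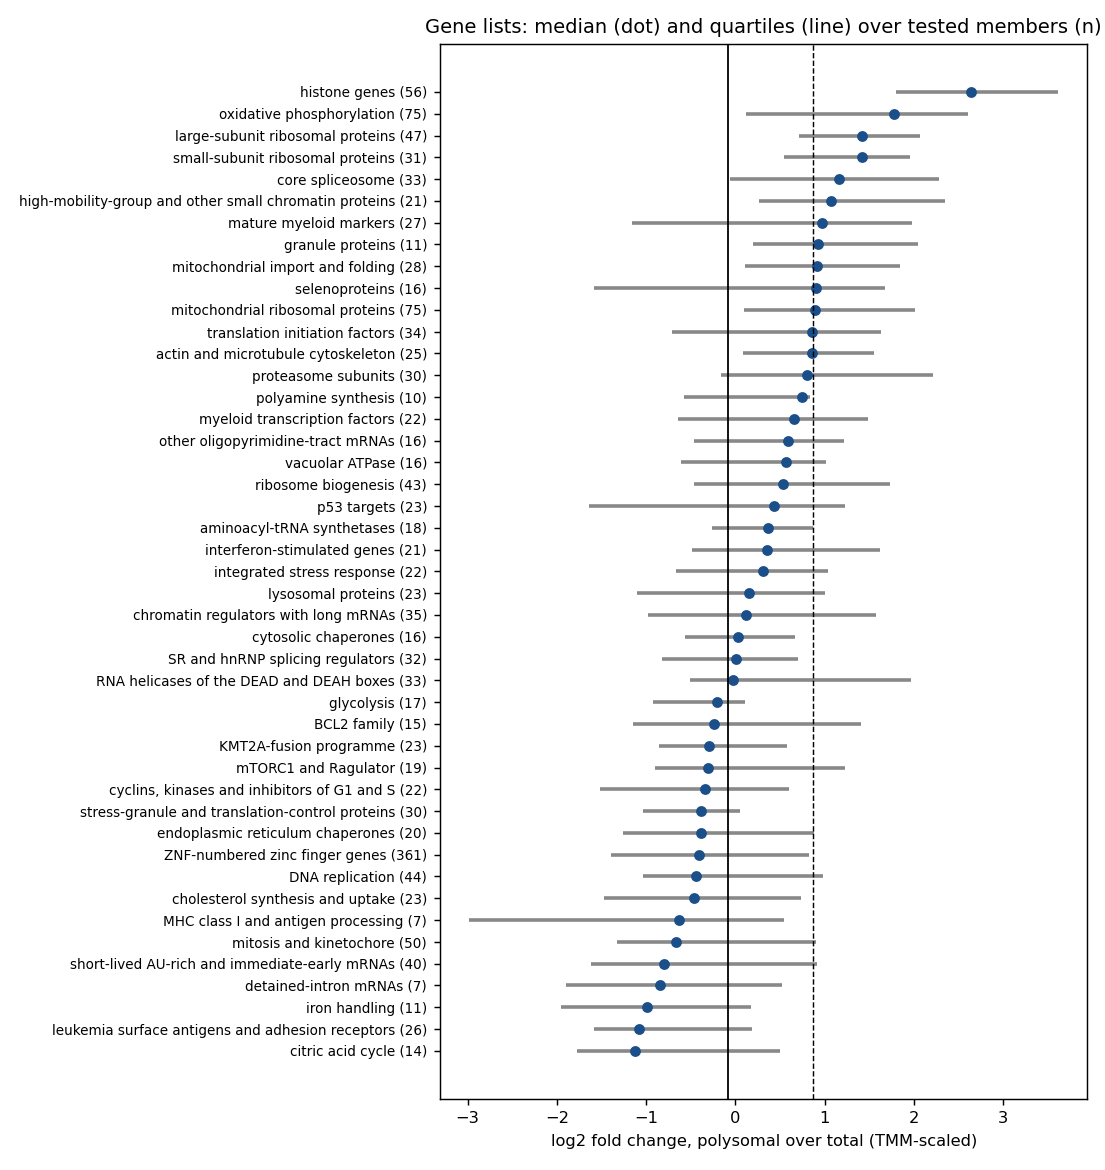
Median log2 fold change, polysomal over total RNA (dots), and quartiles (lines) of gene lists with at least 7 tested members, whose number is given in brackets. The solid line marks the median of all genes (−0.08). The dashed line marks a value of 0.87, below which values turn negative under total counts. In the main test, shown here, histone genes lie highest (2.64) and citric acid cycle enzymes lowest (−1.12). Relative to all genes, the histone median was lower when only genes of at least 5 CPM were tested.

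Genes of the mitochondrion fell on both sides, beside 38.9% higher and 42.3% lower over all genes. Nuclear-encoded subunits of the respiratory chain and the ATP synthase were higher in 55 of 75 and lower in 14 (median 1.77), and took 1.22 to 1.25% of total and 2.27 to 2.64% of polysomal counts. ATP5ME, a small subunit of the ATP synthase, held 18.7, 17.7, 17.8 and 18.8 CPM in total and 429, 517, 401 and 400 CPM in polysomal RNA (4.58 ± 0.11). NDUFS1, a large iron-sulfur subunit of complex I, fell from 117 ± 7.01 to 25.9 ± 7.26 CPM (−2.18 ± 0.17). Mitochondrial ribosomal proteins were higher in 53 of 75 and lower in 13 (median 0.89, 0.02 under total counts), from MRPL23 (4.44 ± 0.11), whose locus overlaps H19, to MRPS30 (−1.73 ± 0.11). Import and folding factors were higher in 19 of 28 and lower in 4 (median 0.92), from the small translocase chaperone TIMM13 (2.96 ± 0.10) to TIMM21 (−1.04 ± 0.09).

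Citric acid cycle enzymes were lower in 9 of 14 and higher in 4 (median −1.12), against 42.3% lower and 38.9% higher over all genes. SUCLG1, a subunit of succinyl-CoA ligase, rose (1.35 ± 0.19), and IDH3B, a subunit of isocitrate dehydrogenase, rose from 113 ± 2.65 to 174 ± 9.07 CPM (0.62 ± 0.07; −0.24 under total counts). Glycolytic enzymes were lower in 8 of 17 and higher in 4 (median −0.20; relative to all genes −0.12, and −0.196 without polysomal replicate 3), from triosephosphate isomerase TPI1 (2.07 ± 0.09) to hexokinase HK2 (−2.12 ± 0.12).

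Genes of small chromatin proteins were enriched, beside 38.9% higher and 42.3% lower over all genes. Of 56 histone genes tested out of 85, 49 were higher and the other 7 did not pass (median 2.64), and under total counts 42 were higher and 6 lower. Relative to all genes the list stood at 2.72, and at 1.55 when only genes of at least 5 CPM were tested. H2AFZ, a polyadenylated histone variant, held 382, 366, 378 and 380 CPM in total and 526, 317, 330 and 480 CPM in polysomal RNA. Its groups overlapped (0.13 ± 0.15, adjusted p = 0.406, edgeR), and it stood at −0.72 and was called lower under total counts. The share of the whole list rose less than its median, at 0.225 to 0.229% of total and 0.243 to 0.325% of polysomal counts. Histone mRNAs of the replication-dependent kind mostly lack a poly(A) tail, so these libraries hold only part of them, and many copies are near-identical in sequence. High-mobility-group and other small chromatin proteins were higher in 17 of 21 and lower in 3 (median 1.07), from HMGB1 (601 ± 37.1 to 6534 ± 1768 CPM, 3.44 ± 0.16) to HMGN4 (−0.73 ± 0.09). PTMA, a small acidic nuclear protein among the 5 genes with the most polysomal counts, held 2141, 2053, 2073 and 2146 CPM in total and 15687, 25053, 28084 and 15796 CPM in polysomal RNA (3.33 ± 0.18).

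RNA-processing genes were mixed, beside 38.9% higher and 42.3% lower over all genes. Core spliceosome genes were higher in 22 of 33 and lower in 7 (median 1.16), from SNRPB2 (125 ± 7.79 to 1548 ± 274 CPM, 3.63 ± 0.12) to SF3B1 (−2.18 ± 0.11). Splicing regulators of the SR and hnRNP families were higher in 14 of 32 and lower in 14 (median 0.01, −0.86 under total counts), from the coactivator SRRM1 (3.35 ± 0.12) to HNRNPF (−1.31 ± 0.13). RNA helicases were higher in 14 of 33 and lower in 13 (median −0.02), from DDX27 (3.11 ± 0.15) to DDX3X (−2.20 ± 0.13). Ribosome biogenesis factors were higher in 26 of 43 and lower in 13 (median 0.54, −0.34 under total counts), from PPAN (3.51 ± 0.17, overlapping the readthrough PPAN-P2RY11) to UTP4. Of 7 mRNAs known to keep an intron in the nucleus, 5 were lower and 2 higher, from PNISR (2.83 ± 0.12) to the methionine adenosyltransferase MAT2A (−3.60 ± 0.14).

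Genes of protein turnover and folding also differed within each class, beside 38.9% higher and 42.3% lower over all genes. Proteasome subunits were higher in 20 of 30 and lower in 8 (median 0.80, −0.06 under total counts), from PSMA7 (3.28 ± 0.10) to PSMB7 (−2.63 ± 0.10). Cytosolic chaperones were higher in 7 of 16 and lower in 6 (median 0.03, −0.84 under total counts), yet took 2.77 to 3.68% of polysomal against 1.68 to 1.77% of total counts. The chaperone HSP90AA1 held 2423, 2160, 2422 and 2347 CPM in total and 19420, 21305, 32055 and 22512 CPM in polysomal RNA (3.35 ± 0.14), and HSP90AB1 rose by 2.00 ± 0.12, whereas HSPA4 fell (−2.09 ± 0.08). Endoplasmic reticulum chaperones were lower in 11 of 20 and higher in 8 (median −0.38), from SDF2L1 (3.18 ± 0.12) to the disulfide isomerase PDIA6 (−3.71 ± 0.10). tRNA synthetases were higher in 11 of 18 and lower in 5 (median 0.37, −0.50 under total counts), from DARS (2.37 ± 0.09) to IARS (−3.35 ± 0.10). Cytoskeletal genes were higher in 18 of 25 and lower in 5 (median 0.85, −0.01 under total counts), from the myosin light chain MYL6 (4.14 ± 0.10) to ACTR2 (−1.93 ± 0.14), and cytoplasmic actin ACTB rose by 1.55 ± 0.08.

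**Figure D3:**
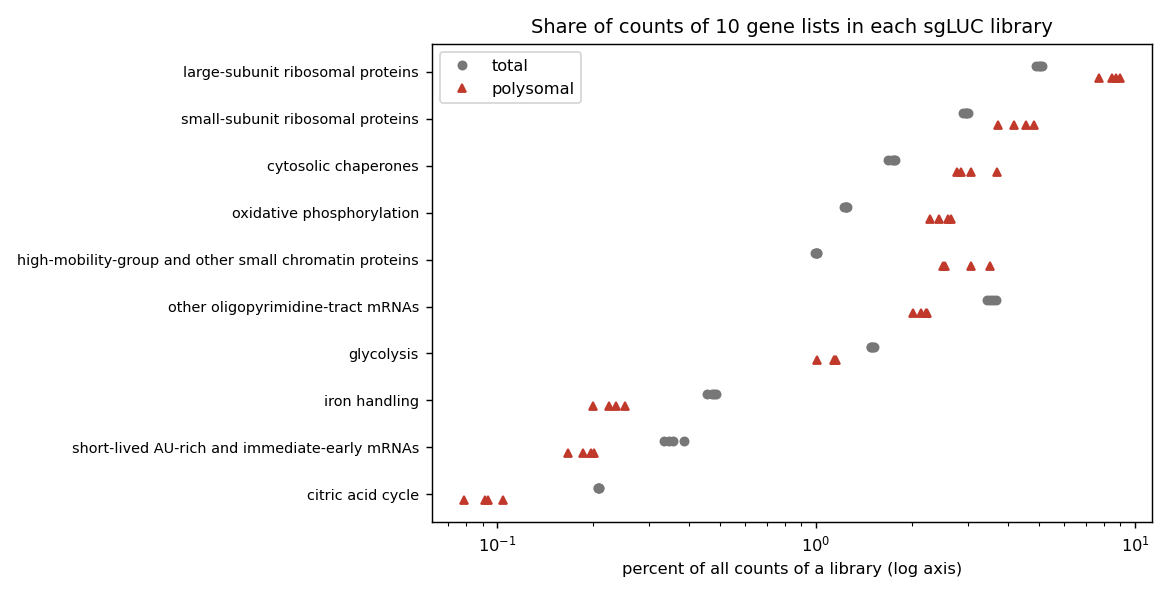
Share of all counts of a library (percent, log axis) taken by 10 gene lists in each of the 4 total and 4 polysomal sgLUC libraries, one point per library. The fractions do not overlap for these 10 lists, as for every list except lysosomal proteins and tRNA synthetases. Ribosomal proteins of both subunits (a list each), cytosolic chaperones, oxidative phosphorylation and small chromatin proteins lie higher on polysomes, and the other 5 lists lie lower.

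Regulators with short-lived mRNAs had a median of −0.80. Of 40 tested, 19 were lower and 16 higher, near the shares over all genes (42.3% lower and 38.9% higher). Relative to all genes the list stood at −0.72, at −0.46 without polysomal replicate 4 and at −0.31 when only genes of at least 5 CPM were tested. MYC, a transcription factor that drives growth (chromosome 8, 127735434 to 127742951), held 728, 780, 753 and 792 CPM in total and 93.9, 87.8, 102 and 145 CPM in polysomal RNA. The groups did not overlap (−2.83 ± 0.14, adjusted p = 1.03e-09, edgeR). The chemokine CXCL8 fell from 11.2 ± 2.12 to 0.564 ± 0.420 CPM (−4.34 ± 0.39), whereas NFKBIA, an inhibitor of NF-kappaB, rose (2.29 ± 0.08). In the BCL2 family 6 of 15 were higher and 7 lower (median −0.24). Relative to all genes the family stood at −0.16, but above 0 without total replicate 2 (0.030), without polysomal replicate 4 (0.051), without an expression filter (0.044), with all 16 libraries (0.043) and with halved counts (0.076), and without polysomal replicate 2 it stood at −0.067. The anti-apoptotic genes MCL1 (−1.62 ± 0.12) and BCL2 (154 ± 10.8 to 77.5 ± 12.3 CPM, −0.99 ± 0.11) fell, as did the pro-apoptotic BCL2L11 (−2.18 ± 0.10), and the pro-apoptotic BAX rose (2.13 ± 0.11). Iron handling genes were lower in 6 of 11 and higher in 3 (median −1.0). TFRC, the transferrin receptor, held 663, 584, 642 and 633 CPM in total and 157, 84.5, 104 and 121 CPM in polysomal RNA (−2.44 ± 0.16).

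Of all genes, 42.3% were lower and 38.9% higher, and cell cycle genes are given beside these shares. Mitosis and kinetochore genes were lower in 29 of 50 and higher in 18 (median −0.67), from the kinetochore protein SPC24 (3.28 ± 0.12) to ANLN, a scaffold of cytokinesis (−2.77 ± 0.18). DNA replication genes were lower in 23 of 44 and higher in 17 (median −0.44), from the polymerase subunit POLD2 (2.13 ± 0.10) to thymidylate synthase TYMS (−3.85 ± 0.16). Regulators of G1 and S were lower in 11 of 22 and higher in 8 (median −0.34; relative to all genes −0.26, and −0.17 without polysomal replicate 4), from E2F2 (1.90 ± 0.14) to the retinoblastoma gene RB1 (−3.37 ± 0.12). Zinc finger genes with a ZNF number were lower in 174 of 361 and higher in 117 (median −0.41), from ZNF593 to ZNF175 (−3.32 ± 0.16). Subunits of mTORC1 and Ragulator were lower in 10 of 19 and higher in 7 (median −0.31), from LAMTOR4 to the kinase MTOR itself (−2.48 ± 0.10).

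Genes that characterize AML cells are given beside the shares over all genes (42.3% lower and 38.9% higher). Surface antigens and adhesion receptors were lower in 17 of 26 and higher in 6 (median −1.08), from CD82 (2.67 ± 0.14) to the cytokine receptor chain CSF2RB (−3.04 ± 0.19). Without polysomal replicate 2 the list stood at −0.75 relative to all genes in place of −1.0. Genes of the KMT2A-fusion program were lower in 12 of 23 and higher in 8 (median −0.29; relative to all genes −0.21, and −0.099 without polysomal replicate 2). The transcription factor MEF2C rose (1.85 ± 0.13), and the Polycomb protein BMI1, whose gene overlaps the readthrough COMMD3-BMI1, fell (−4.37 ± 0.15). Myeloid transcription factors were higher in 12 of 22 and lower in 7 (median 0.65, −0.22 under total counts), from LYL1 (2.22 ± 0.13) to FLI1 (−2.33 ± 0.16). Mature myeloid markers were higher in 15 of 27 and lower in 10 (median 0.97, 0.09 under total counts), from the calcium-binding protein S100A4 (4.53 ± 0.12) to the receptor TLR2 (−3.22 ± 0.13). LYZ, the secreted enzyme lysozyme, fell from 2288 ± 123 to 552 ± 66.3 CPM (−2.05 ± 0.10) and was named after its values were seen.

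Smaller groups of metabolic and organelle genes showed similar spreads, beside 38.9% higher and 42.3% lower over all genes. Cholesterol genes were lower in 14 of 23 and higher in 8 (median −0.47), from MVD (2.61 ± 0.14) to lanosterol synthase LSS (−4.61 ± 0.25). Selenoproteins were higher in 10 of 16 and lower in 6 (median 0.90, 0.04 under total counts), from SELENOW (2.44 ± 0.09) to SELENOF (−2.53 ± 0.15). Lysosomal proteins were higher in 11 of 23 and lower in 9 (median 0.16, −0.71 under total counts), from CD63 (3.40 ± 0.10) to the acid lipase LIPA (−2.65 ± 0.14). The vacuolar ATPase (9 of 16 higher, 7 lower), p53 targets (12 of 23 higher, 9 lower), genes of the integrated stress response (11 of 22 higher, 9 lower), interferon-stimulated genes (10 of 21 higher, 5 lower) and polyamine genes (7 of 10 higher, 3 lower) had medians of 0.57, 0.43, 0.31, 0.36 and 0.75. These 5 medians were negative under total counts. Without polysomal replicate 2 the interferon-stimulated genes stood at −0.04 relative to all genes in place of 0.44. Granule proteins were higher in 7 of 11 and lower in 2 (median 0.93, 0.08 under total counts, where 5 were higher and 5 lower), and genes of antigen presentation were higher in 1 of 7 and lower in 3 (median −0.63; relative to all genes −0.55, and −0.34 without polysomal replicate 1).

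For some lists the summed share of counts, which the most abundant members set, went against the TMM-scaled median. The share of granule proteins was 0.510 to 0.543% of total and 0.265 to 0.359% of polysomal counts. The shares of polyamine genes, selenoproteins, myeloid transcription factors, p53 targets, genes of the integrated stress response and SR and hnRNP regulators were also lower on polysomes (0.63 to 0.79 times those of total RNA) although their TMM-scaled medians were above 0. Shares are on the scale of total counts. On that scale the median of selenoproteins was 0.04. Those of polyamine genes (−0.12), myeloid transcription factors (−0.22), p53 targets (−0.44), the integrated stress response (−0.56) and SR and hnRNP regulators (−0.86) were negative, as were the changes of their shares. The shares of mTORC1 and Ragulator subunits, genes of antigen presentation and RNA helicases were higher (1.27 to 1.76 times) although their medians were below 0. The helicase median (−0.02) was near 0 and lay above that of all genes (−0.08). The fractions did not overlap for any of the lists named here. The same held for every other list except lysosomal proteins and tRNA synthetases, so it does not set these lists apart.

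Features of the transcripts were set against the fold changes as a description across genes, which are not independent. With increasing coding length the median fell from 0.85 for 1456 genes under 600 bases to 0.11 from 900 to under 1200 bases and −0.77 for 1116 genes of at least 3600 bases. By 3′ UTR length it went from 0.78 under 150 bases to −0.61 from 2400 bases. With the number of AUUUA motifs in the annotated 3′ UTR, searched on the transcript strand and present in 65.4% of 11969 genes, it fell from 0.57 for 4145 genes with none to −0.88 for 1835 genes with at least 8. Longer 3′ UTRs hold more of these motifs. With the share of G or C at the last position of codons (GC3) it rose from −0.80 below 40% to 0.65 from 80%.

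**Figure D4:**
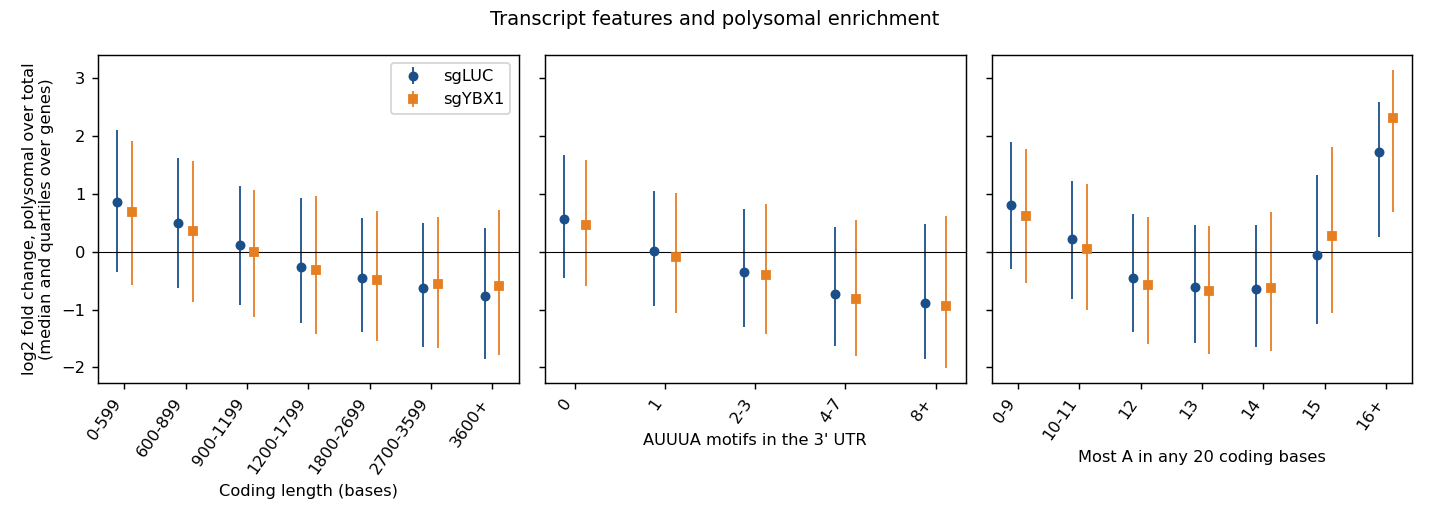
Log2 fold change, polysomal over total RNA (median and quartiles over genes), by coding length, number of AUUUA motifs and the largest number of A in any 20 coding bases, in sgLUC and sgYBX1 cells. Medians fall with length and motif number in both, and genes with at least 16 A lie highest in the last panel (1.72 in sgLUC and 2.30 in sgYBX1 cells).

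Genes with a very A-rich coding stretch departed from these trends. RNA of both kinds was selected by poly(A), and whether A-rich stretches within an mRNA affected this selection was not tested. The largest number of A in any 20 bases of the coding sequence was counted on the transcript strand, and the limit of 16 was chosen after the values were seen. The median was 0.81 for genes with under 10 A, −0.65 for those with 14, −0.06 for those with 15 and 1.72 for the 369 genes (3.08%) with at least 16, of which 73.4% were higher and 15.7% lower. The difference between these 369 and all other genes was 1.85, against 0.63 with a limit of 15, 2.45 with a limit of 17 and 0.53 when the window was searched over the whole mRNA without its last 50 bases. For coding sequences from 1800 to under 3600 bases the median was 1.58 for 122 such genes and −0.55 for 3032 others, and from 3600 bases it was 1.41 for 127 and −0.94 for 989.

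Members with such a stretch were compared with the others in each list. The limit was chosen on the values of these same genes, so the splits describe them and are no separate support. All 12 chromatin regulators with such a stretch were higher (median 2.18), whereas of the other 23, 4 were higher and 14 lower (median −0.53). SMARCA4, a chromatin remodeling ATPase with 17 A, rose from 388 ± 13.4 to 3298 ± 736 CPM (3.09 ± 0.14), and TRRAP, a scaffold of acetyltransferase complexes with 13 A, fell from 134 ± 6.81 to 16.8 ± 2.00 CPM (−3.0 ± 0.10). The 3 initiation factors, 4 RNA helicases and 3 proteasome subunits with such a stretch were higher as well, as were 2 of 3 mitosis genes and 4 of 6 zinc finger genes. The 1 surface antigen (−1.44) and the 1 small chromatin protein (−0.28) with such a stretch were not.

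The richest windows of 5 enriched and 2 depleted genes are shown because they differ in this respect. They are picked examples and do not stand for all enriched genes. Among the 10 most enriched genes only KNOP1 holds at least 16 A, and the others hold 6 to 12. Capitals mark the 20 coding bases with the most A (GENCODE 29, GRCh38, transcript strand, 5′ to 3′).
KNOP1: tagtgAAGAAAAAGAAGAAGAAAAAgaagg
EIF5B: aagggAAAAAGAAAAAAGAGAAAAAaaagc
SRRM1: ggtggAAAGAAAAAGAAGAAAAAGAaggac
HSP90AA1: aagacAAAGAAGAAGAAAAAGAAAAagaag
PSMA7: aaattGAAAAAGAAAAAGAAGAAAAcgaaa
PRMT5: cccttAATCAGGAAGATAACACCAAcctgg
TRRAP: caatgGATAAAGCCAAAAAAGAACAtgaga
The first 5 windows hold 16 or 17 A, and those of PRMT5 and TRRAP hold 11 and 13. All 7 are coding sequence, at chr16:19714819-19714848 (minus strand), chr2:99360322-99360351 (plus), chr1:24671404-24671433 (plus), chr14:102084917-102084946 (minus), chr20:62136883-62136912 (minus), chr14:22927573-22927602 (minus) and chr7:98978233-98978262 (plus).

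The 8 sgYBX1 libraries, which share no library with the control comparison, were compared in the same way. There 40.4% of 12154 genes were higher and 45.6% lower on polysomes. Of 9730 genes called in control cells and tested in both, 9559 had the same sign and 9173 were also called. The log2 fold changes correlated at Pearson's r = 0.957 across 11934 genes, which are not independent replicates. The difference between genes with and without an A-rich stretch was 2.51 in sgYBX1 cells.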

How the data were processed

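Polysomal and total RNA of sgLUC cells were compared from raw counts per gene, which the authors deposited as 1 table of 18991 Entrez genes and 16 libraries. The submitters' notes on processing list the build GRCh38, the read trimmer Trimmomatic 0.36.5, the aligner STAR 2.7.8a, the read counter featureCounts 2.0.1 as well as DESeq2 1.30.0. The kit does not mark strand, so overlapping genes cannot be told apart. Of the counts from 1 to 39, 63.0% were even, so mates of a pair may have been counted separately, and halved counts were tried. Symbols were looked up by Entrez ID in the deposited tables and RefSeq, and 10 IDs had none. The deposited tables of the authors' own comparisons (log2 fold changes and p-values of sgYBX1 against sgLUC) were not used otherwise. Intervals and errors do not cover PCR duplication.

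Genes were filtered with filterByExpr, scaled by TMM and tested with edgeR 4.0.16 (quasi-likelihood, two-sided, R 4.3.3), with Benjamini-Hochberg adjustment over all genes tested and a threshold of 0.05. SE was the log2 fold change divided by the root of F. The design took no replicate block. Alternatives were DESeq2 1.42.0, limma 3.58.1, other scalings and filters, all 16 libraries, a block and each library left out. The script was tested on simulated data. Named genes were the 10 highest and 10 lowest protein-coding genes past the threshold whose mean reached 20 CPM and whose fractions did not overlap, the highest and lowest member of each of 47 lists whose mean reached 5 CPM, the 5 genes with the most counts in each fraction, and genes the study names. Members, lists and named genes were chosen with earlier results of these data known. Lists are therefore described by counts and medians without a test, except for the summed share of counts of ribosomal proteins. Coding models came from GENCODE 29 (11969 genes) and start sites from RefSeq GRCh38.p14 (9879 genes). Figures were drawn with matplotlib 3.10.9. Some items that the rules select are not reported here.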

Additional observations from a re-analysis of the deposited data

Results flagged for a closer look

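In 6 of 218 groups of 4 libraries examined for the named genes, 1 library stood far from the other 3, where chance flags about 1 in 20: TMEM30A (203 CPM), LYZ (2104 CPM) and BCL2L11 (46.7 CPM) in total RNA, and HMGB1 (9164 CPM), RB1 (15 CPM) and CD63 (1660 CPM) in polysomal RNA.

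The log2 fold change of polysomal over total RNA differed between sgLUC and sgYBX1 cells for 33 of the 109 named genes (edgeR interaction test over all 16 libraries, adjusted p under 0.05), against 17.3% of all genes tested. It was lower in sgLUC cells, as sgLUC minus sgYBX1, for PTMA (−1.17), GAB2 (−0.95), EIF5B (−0.87), HSP90AA1 (−0.79), PABPC4 (−0.78), DDX27 (−0.75), HMGB1 (−0.71), HSP90AB1 (−0.71), SMARCA4 (−0.68), NAP1L1 (−0.63), PABPC1 (−0.62), KNOP1 (−0.59), SNRPB2 (−0.57), HSPG2 (−0.56), MEF2C (−0.54), PNISR (−0.53), E2F2 (−0.52), SRRM1 (−0.52), IGF2BP2 (−0.44), NFKBIA (−0.37), YBX1 (−0.33), DARS (−0.32) and RPLP2 (−0.28). It was higher in sgLUC cells for PSMB7 (0.77), IDH3B (0.73), LIPA (0.72), BCL2L11 (0.72), H2AFZ (0.69), MAT2A (0.67), MYC (0.56), IARS (0.53), TFRC (0.50) and RPS29 (0.44).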

How the results depend on the processing

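Scaling to total counts changed the most: 2689 genes were higher, 1621 over 2-fold higher and 5795 over 2-fold lower, 79.5% of the 9784 calls were kept and 665 were called in the opposite direction, and H2AFZ (−0.72), PABPC1 (−0.47), EIF3D (−0.53), IGF2BP2 (−0.44) and IDH3B (−0.24) turned negative. Under the other alternatives no call turned, and 81.9% (at least 5 CPM) to 99.6% of calls were kept. Calls on genes that an alternative's filter left untested counted as not kept. The replicate block gave 4592 higher and 5132 lower genes. With the mean of each fraction removed, same-numbered libraries of the fractions correlated at −0.054 to 0.16 and other pairs at −0.16 to 0.083. With 4 libraries per fraction this cannot show whether equal numbers mark the same culture. Leaving out 1 library gave 4557 to 4690 higher and 4886 to 5352 lower genes.

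List medians are given here relative to all genes of the main test, a reference chosen after the data were seen: with each alternative's own genes, 35 list medians moved without an expression filter. Without the filter, surface antigens stood at −0.70, zinc fingers −0.18, BCL2 family 0.044, cytosolic chaperones 0.26, myeloid transcription factors 0.51, selenoproteins 0.84, granule proteins 1.66 and epithelial and stromal markers 3.06. At 5 CPM, surface antigens stood at −0.84, short-lived mRNAs −0.31, antigen presentation −1.06, zinc fingers −0.14, TOP mRNAs 0.53, myeloid transcription factors 0.96, granule proteins 0.52 and histones 1.55. With halved counts, surface antigens stood at −0.81, zinc fingers −0.29, BCL2 family 0.076 and myeloid transcription factors 0.59. With all 16 libraries, the BCL2 family stood at 0.043 and myeloid transcription factors at 0.55. Interferon-stimulated genes stood at 0.0040 with voom and 0.11 with the replicate block. Leaving out 1 library gave ranges of −0.15 to 0.051 (BCL2 family, above 0 without total replicate 2, 0.030, or polysomal replicate 4, 0.051), −0.037 to 0.48 (interferon), −0.25 to −0.10 (KMT2A), −0.39 to −0.30 (zinc fingers), −0.29 to −0.17 (G1 and S), −0.20 to −0.11 (glycolysis), −1.10 to −0.75 (surface antigens), −0.83 to −0.46 (short-lived), 0.50 to 0.74 (myeloid transcription factors), 0.54 to 0.66 (ribosome biogenesis), 0.91 to 1.00 (cytoskeleton), 1.5 to 1.61 (small-subunit ribosomal proteins) and 1.88 to 2.47 (epithelial and stromal). The difference between the shortest and longest coding classes was 1.63, and 1.17 with the shortest coding sequence of each gene or 1.80 at 5 CPM. The causes were not tested.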
